A study of Mus musculus with 37 samples.

Results

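A set of 33 genes of the megakaryocyte and platelet lineage was followed through social defeat stress in the bone marrow and spleen of mice. The genes were taken by name from the deposited table of 35885 genes, and each of the 33 names matched 1 row. They were grouped by role into 4 subunits of the glycoprotein Ib-IX-V receptor, 4 integrin, collagen and podoplanin receptors, 3 other surface proteins, 5 receptors and channels for soluble signals, 2 chemokines of alpha granules, 7 other granule and secreted proteins, 2 proteins of granule formation and secretion, and 6 cytoskeletal and signalling proteins.

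All mice were wild-type and of the strain C57BL/6N. Social defeat is a stress model in which a larger, hostile mouse attacks the subject. Mice were defeated 1 time, 4 times or 10 times at 1 defeat a day, a further group was defeated 10 times and then left for 1 week (the rested group), and controls were not defeated. Marrow flushed from the femur gave 3 control, 4 1-defeat, 3 4-defeat, 5 10-defeat and 4 rested libraries of polyadenylated RNA, and whole spleen gave 4, 2, 2, 6 and 4. The labels do not tie libraries to animals, so p-values measure the spread between these samples. Age and sex of the mice are not given in the sources used here.

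Megakaryocytes are large polyploid cells of the marrow, and in mice also of the spleen, that shed platelets into the blood. Thrombopoietin drives their growth, and the transcription factors Gata1, Fli1, Runx1 and Nfe2 drive their genes. Mature platelets have no nucleus and carry surface receptors that hold them to a damaged vessel wall, alpha granules filled with chemokines and clotting proteins, and a ring of microtubules. Because they keep part of the megakaryocyte's messenger RNA, RNA of a whole tissue holds transcripts of both.

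The promoters of 27 of the 33 genes were found in RefSeq (build GRCm38.p6), and the 250 bases before the start were searched on both strands for AGATAA or TGATAA, which Gata factors bind, and for AGGAAG, which Ets factors such as Fli1 bind. Shown are 4 genes on which the results below turn and Gp5, which holds both motifs. Each is written 5′ to 3′ toward the start of its gene, with the motifs in capitals.
Gp1ba (chr11:70638872-70639121, + strand): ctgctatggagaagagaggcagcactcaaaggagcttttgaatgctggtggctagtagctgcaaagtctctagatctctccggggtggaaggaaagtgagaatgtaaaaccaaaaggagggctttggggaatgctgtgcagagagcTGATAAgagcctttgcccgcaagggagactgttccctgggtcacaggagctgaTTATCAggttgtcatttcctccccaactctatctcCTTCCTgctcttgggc
Gp9 (chr6:87777820-87778069, + strand): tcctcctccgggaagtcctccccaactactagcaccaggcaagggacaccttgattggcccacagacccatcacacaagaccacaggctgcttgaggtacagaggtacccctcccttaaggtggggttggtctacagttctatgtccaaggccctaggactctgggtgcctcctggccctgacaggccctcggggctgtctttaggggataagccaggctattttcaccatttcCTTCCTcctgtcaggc
Gp5 (chr16:30310782-30311031, - strand): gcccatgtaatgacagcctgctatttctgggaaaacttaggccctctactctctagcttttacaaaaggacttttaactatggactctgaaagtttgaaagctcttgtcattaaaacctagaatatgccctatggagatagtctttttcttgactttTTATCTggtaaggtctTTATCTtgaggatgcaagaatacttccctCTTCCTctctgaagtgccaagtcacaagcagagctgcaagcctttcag
Pf4 (chr5:90772185-90772434, + strand): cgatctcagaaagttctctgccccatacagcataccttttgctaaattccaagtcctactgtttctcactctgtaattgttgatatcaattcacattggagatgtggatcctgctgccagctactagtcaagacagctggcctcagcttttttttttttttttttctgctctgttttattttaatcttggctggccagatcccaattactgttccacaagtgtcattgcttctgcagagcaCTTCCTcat
Itga2b (chr11:102469884-102470133, - strand): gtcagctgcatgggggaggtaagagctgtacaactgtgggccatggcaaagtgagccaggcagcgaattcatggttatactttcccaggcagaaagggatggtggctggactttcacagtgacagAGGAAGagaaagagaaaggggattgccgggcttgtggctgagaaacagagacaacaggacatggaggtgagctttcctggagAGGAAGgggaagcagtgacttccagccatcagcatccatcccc
In Gp1ba, Gata motifs began 104 and 51 bases before the start and an Ets motif 16 bases before it. In Gp5, Gata motifs began 93 and 77 bases before the start and an Ets motif 48 bases before it. Gp9 and Pf4 had an Ets motif 16 and 9 bases before the start, and Itga2b had Ets motifs 125 and 43 bases before it. The starts are those of RefSeq. In the GENCODE M21 annotation Itga2b begins further upstream, at 102470122, so its motifs lie inside that annotated gene. The Ets motif was present in 14 of the 27 genes (51.9%) and in 32.3% of the promoters of 27025 genes. A Gata motif was present in 7 of the 27 (25.9%) and in 18.8% of all genes, and both motifs were present in 3 (11.1%; F2rl2, Gp1ba and Gp5) and in 5.45% of all genes. The spellings were chosen after the members' sequences were seen, so the higher shares among the members are no test of an excess. None of the motifs overlap each other in the promoters shown, and a match is a description of these letters only.

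The authors' values are abundances per transcript length, with a scale set for each library, so levels of different genes can be compared. Depth estimated from the steps between low values ran from 3610000 to 34960000 reads per library. Taken at its longest transcript, a member's estimated reads per library had medians between 41.1 (Trpc6) and 12100 (Rasgrp2). Depth was taken at median transcript lengths, so the members' estimates run high beside it. Rasgrp2 has 24 transcripts, with a median of 607 bp and a longest of 8815 bp. Differences are on the scale of log2(value + 1) with their standard error (SE), which understates changes of low genes; a gene was called when its limma p, adjusted over all genes tested, was under 0.05. In marrow 12442 genes were tested and in spleen 13945. Of the 33 genes, 32 passed the filter on low values in marrow (Slc24a3 did not) and all 33 passed in spleen; Trpc6 passed only through its rested libraries in both tissues. In spleen 5 libraries stood apart, namely 10-defeat D6, D7, D9 and D10 and rested D2: their column totals were over 1500000, against 657918 to 1015790 in the other 13, and haemoglobin genes took 45.4% to 58.8% of the total, against 1.74% to 39.8%. They also differed by transcript length, with longer genes lower. Per doubling of length, a gene's deviation from the spleen mean changed by -0.242 to -0.174 log2, against -0.125 to 0.210 in the other 13. In bulk tissue, fewer cells of a type and less RNA per cell cannot be told apart.

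All 33 genes were above 0 in every one of the 37 libraries. Per length, the highest levels in control marrow were those of Ppbp, the platelet basic protein chemokine, at 105 ± 28.9 (SD, n = 3), Rasgrp2, the calcium-dependent activator of Rap1, at 98.5 ± 7.86, Cd9, a tetraspanin, at 96.3 ± 2.07, Bin2 at 82.4 ± 7.07 and Pf4, platelet factor 4, at 75.2 ± 18.4. These neighbours overlapped: Ppbp ran from 84.7 to 138 and Pf4 from 58.0 to 94.6. Itga2b, the integrin chain that marks the lineage, was at 37.0 ± 2.98, Gp9 at 23.6 ± 3.02 and Tubb1, the platelet form of beta tubulin, at 17.7 ± 3.39. At the low end were the collagen receptor Gp6 (1.89 ± 0.289), the sodium-calcium exchanger Slc24a3 (0.771 ± 0.103) and the calcium channel Trpc6 (0.699 ± 0.159).

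Between control spleen and control marrow, 15 of the 33 genes were lower in spleen and 3 higher, with a median difference of -0.70 against 0.104 over all 14513 genes tested; of all genes, 19.2% were called lower and 27.1% higher. All control spleens lay below all control marrow in 24 of the 33 and above it in 6, against 26.5% and 35.1% of all genes. With libraries rescaled to equal totals 9 were called lower and 4 higher, and fitted on these groups alone 23 and 6. Shares of all genes called in these other fits are not given here, so the counts have no background beside them. F5, clotting factor V, was lower in spleen by 2.63 ± 0.22 (adjusted p = 4.5e-11), Tmem40 by 2.72 ± 0.54 (adjusted p = 9.3e-05), Nbeal2, which alpha granules need to form, by 2.09 ± 0.23 (adjusted p = 6.92e-09), Thbs1, thrombospondin 1, by 2.04 ± 0.41 (adjusted p = 0.000111) and Itga2b by 1.94 ± 0.45 (adjusted p = 0.000678). The 3 higher genes were Clu, clusterin, by 4.76 ± 0.54, Sparc, a matrix protein, by 3.46 ± 0.38, and P2ry12, the ADP receptor, by 1.79 ± 0.17. Clu was at 479, 425, 406 and 405 in control spleens and at 11.04, 11.1 and 26.3 in control marrow. Clu and Sparc are also made by stromal cells and P2ry12 by other blood cells: summed stromal markers were at 412 to 516 in control spleens and 86.3 to 156 in control marrow, and endothelial markers at 303 to 334 and 55.3 to 62.6. Of blood cells, macrophage markers were at 1222 to 1363 and 214.5 to 337.5, and B and T cell markers also summed higher in spleen. Neutrophil, erythroid, and basophil and mast cell markers summed lower in spleen. The part of these cells in the levels of Clu, Sparc and P2ry12 was not tested.

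After 1 defeat, marrow had none of 32 genes called in either direction (0% of all genes were called higher and 0.00804% lower). An unadjusted limma p under 0.05 was found in 2 members, both lower, and in 535 of all 12442 genes in either direction. Of the 32 differences, 31 were below 0. In no member did the group lie wholly above or below the controls, as 2.21% and 4.32% of all genes did. The median was -0.35 against -0.05 over all genes. The libraries of this group were spread widely: Gp1ba, the subunit that binds von Willebrand factor, was at 6.79 and 4.69 in D15 and D16 and at 1.92 and 2.95 in D17 and D18. Library D17 was the lowest of the 4 in 22 of the 33 genes, D15 the highest in 23.

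After 4 defeats, 3 of 32 genes fell in marrow and 1 rose, while 13% of all genes were called lower and 7.07% higher. Thbs1 was at 17.1, 20.4 and 25.1 in controls and at 12.2, 2.11 and 8.34 after 4 defeats. These groups did not overlap, and Thbs1 fell by 1.57 ± 0.40 (adjusted p = 0.0141). Mmrn1, multimerin 1, which carries factor V in alpha granules, fell by 0.92 ± 0.29 (adjusted p = 0.033) and Nrgn, neurogranin, by 1.246 ± 0.42 (adjusted p = 0.0478). Tmem40 rose by 0.94 ± 0.19 (adjusted p = 0.00527). All 3 libraries lay below all controls in 10 members and above them in 2, against 28.8% and 15.4% of all genes. Library D12 held the lowest value of all 19 marrow libraries in 17 of the 33 genes: Pf4 was at 14.1 there against 73.5 and 57.2 in D11 and D14, and Ppbp at 16.9 against 83.4 and 72.9. Without D12, or without control C4, no member was called lower, and without D11 7 were; without control C1 or C2 or without D14 it was 1.

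After 10 defeats, 7 of 32 genes fell in marrow and 3 rose. Of all genes, 28.3% were called lower and 17.5% higher, so neither share of the members stood above the background. The median was -0.54 against -0.13 over all genes, and the 5 libraries all lay below the controls in 11 genes and above them in 4, against 29.8% and 19.4% of all genes. The 7 were Gp1ba, Gp9, Gp6, Thbs1, Mmrn1, Rab27b and Tubb1, and the 3 were Cd9, P2ry12 and Tmem40. All 7 falls rested on control C4, the control that was highest in 24 of the 33 genes: without it none was called lower, with adjusted p from 0.0541 for Gp1ba to 0.0942 for Gp9, while the 3 rises were still called. Without 10-defeat D6, 4 were called lower. Gp9, Gp6 and Tubb1 lost their calls without D6 or D9 (adjusted p 0.0513 to 0.064), Gp9 and Rab27b without control C1 (0.0682 and 0.052), Gp6 and Tubb1 without control C2 (0.0862 and 0.0613), and Tubb1 without D10 (0.0513).

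Of the glycoprotein Ib-IX-V receptor, 2 of 4 subunits fell. Gp1ba (chromosome 11, 70639122 to 70642036, GRCm38) was at 6.08, 5.94 and 8.87 in control marrow and at 4.92, 1.72, 3.37, 1.38 and 2.01 after 10 defeats. All 5 stressed libraries lay below all controls, and the difference was -1.18 ± 0.33 (adjusted p = 0.00919). Gp9 (chromosome 6, 87778072 to 87779768), a small subunit needed for the complex to reach the surface, was at 23.8, 20.5 and 26.5 in controls and at 17.7, 7.32, 12.7, 7.15 and 10.03 after 10 defeats. Again the groups were apart, with a difference of -1.11 ± 0.38 (adjusted p = 0.0276). Gp5 did not pass at -0.86 ± 0.38 (adjusted p = 0.0706), and Gp1bb differed by -0.02 ± 0.55, with 10-defeat libraries from 4.57 to 8.74 inside the control range of 4.05 to 8.87.

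Among receptors for the integrin ligands, collagen and podoplanin, Gp6 fell by 0.73 ± 0.25 (adjusted p = 0.0275), from 1.56, 2.09 and 2.03 in controls to 1.45, 0.487, 1.01, 0.348 and 0.628. The integrin chains Itga2b (-0.53 ± 0.41) and Itgb3 (-0.49 ± 0.22) and the podoplanin receptor Clec1b (-0.37 ± 0.29) did not pass. The alpha granule chemokines did not pass either: Pf4 differed by -0.56 ± 0.48 and Ppbp by -0.92 ± 0.55. Among granule proteins, Thbs1 fell by 1.15 ± 0.36 (adjusted p = 0.016) and Mmrn1 by 0.91 ± 0.26 (adjusted p = 0.00924). Rab27b, a small GTPase of granule secretion, fell by 0.82 ± 0.27 (adjusted p = 0.0204). Tubb1 (chromosome 2, 174450695 to 174457882) was at 14.5, 17.4 and 21.3 in controls and at 13.6, 4.77, 8.57, 3.51 and 3.54 after 10 defeats. None of the stressed values reached the control range, and the fall was 1.41 ± 0.47 (adjusted p = 0.0243).

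Besides the 3 genes called higher after 10 defeats, Bin2 also lay wholly above the controls (96.3 to 123 against 76.7 to 90.3), without a call. Cd9 was at 94.1, 96.6 and 98.2 in controls and at 139, 162, 154, 122 and 143 after 10 defeats, a rise of 0.57 ± 0.13 (adjusted p = 0.00265). Tmem40, a membrane protein found in platelets, was at 24.3, 24.8 and 23.8 in controls and at 43.6, 66.2, 45.0, 32.7 and 41.5, a rise of 0.85 ± 0.17 (adjusted p = 0.00122). In both genes the stressed libraries all lay above the controls. P2ry12 rose by 0.41 ± 0.14 (adjusted p = 0.0227) from a low level of 2.11 to 2.53, to 2.81 to 4.01. Without control C1 or C2, without 10-defeat D6, or with libraries rescaled to equal totals P2ry12 was no longer called. Neutrophil markers moved with these rises: 13 of 14 were called higher after 10 defeats in marrow, and their summed level went from 60180 to 69590 in controls to 144400 to 271000. In rested marrow their sum was at 85080 to 134700. Cd9 was at 137 to 170 there, Tmem40 at 32.0 to 41.0 and P2ry12 at 2.52 to 2.97. The part of neutrophils in the result was not tested.

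**Figure D1:**
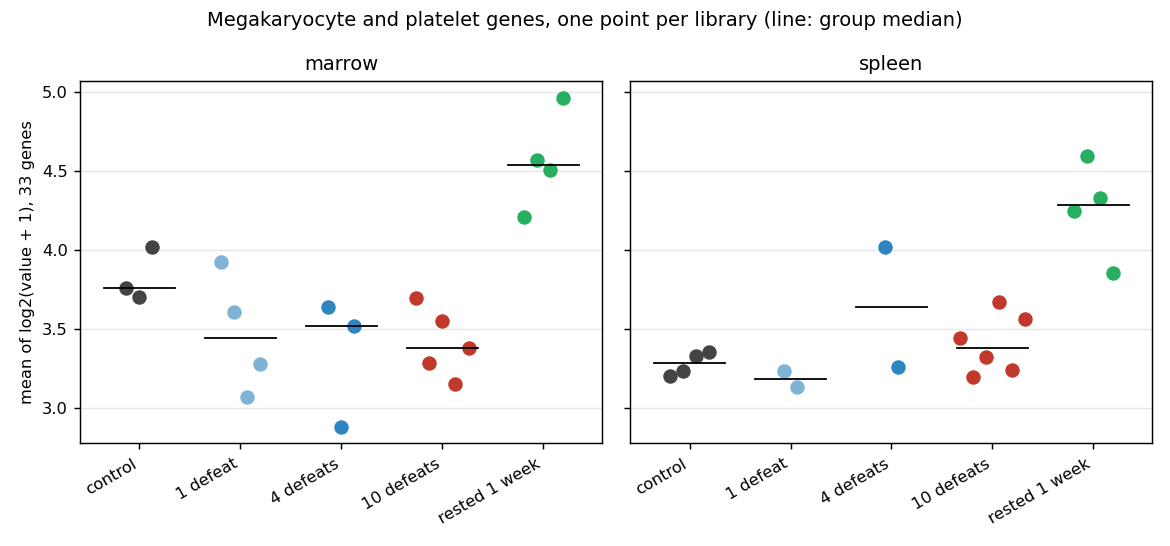
Mean of log2(value + 1) over the 33 genes (y axis) in each library (points) of the 5 groups (x axis), marrow left and spleen right; the line is the group median. The 4 rested marrow libraries sit between 4.21 and 4.97, above all other marrow libraries, the highest of which is control C4 at 4.02, and rested spleens sit between 3.86 and 4.60.

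Between rested and 10-defeat marrow, 23 of 32 genes rose after rest and none fell, against 13.8% and 7.91% of all genes. Leaving out Trpc6, which passed the filter only through its rested libraries, it was 22 of 31. The median was 1.30 against 0.09 over all genes, and in 22 genes all rested libraries lay above all 10-defeat libraries, as in 12.7% of all genes. This comparison shares its 10-defeat libraries with the one against controls, so a low 10-defeat level enters both.

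In the glycoprotein Ib-IX-V receptor, 3 of 4 subunits rose. Gp1ba reached 9.82, 15.1, 13.4 and 20.5 in rested marrow, all above both the controls and the 10-defeat libraries, and rose by 2.13 ± 0.30 over the latter (adjusted p = 0.000839). Gp5 was at 11.4, 17.9, 17.7 and 29.3 after rest against 5.67, 3.13, 5.32, 2.60 and 4.57 after 10 defeats, a rise of 1.90 ± 0.35 (adjusted p = 0.00264). Gp9 reached 25.6, 40.3, 40.1 and 63.8, a rise of 1.86 ± 0.35 (adjusted p = 0.00346). For Gp9 the lowest rested library, D1, lay inside the control range of 20.5 to 26.5. Gp1bb, at 8.89, 16.03, 19.0 and 37.1 after rest, also lay above every 10-defeat library but did not pass (1.39 ± 0.51, adjusted p = 0.0593).

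All 4 genes for integrin, collagen and podoplanin receptors rose. Itgb3 (chromosome 11, 104608000 to 104670476), the beta chain of the fibrinogen receptor, was at 26.2, 38.2, 32.8 and 49.4 in rested marrow, at 17.3, 9.05, 14.4, 10.1 and 13.9 after 10 defeats and at 16.4, 17.2 and 21.2 in controls. The rested libraries were apart from both other groups. Gp6 rose by 1.56 ± 0.23 (adjusted p = 0.000977), Clec1b by 1.26 ± 0.27 (adjusted p = 0.00617) and Itga2b by 1.12 ± 0.38 (adjusted p = 0.0453). Itga2b overlapped, since rested D1 was at 37.5 and 10-defeat D10 at 37.9, and its call was lost without rested D8, which was at 102 (0.84, adjusted p = 0.139), and without 10-defeat D5, D6, D7 or D9 or rested D2 or D3. Of the other surface proteins, Treml1, a receptor stored in alpha granules, rose by 1.70 ± 0.36 (adjusted p = 0.00627), and Selp, P-selectin (0.43 ± 0.18), and Cd9 (0.06 ± 0.12) did not pass.

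Among receptors for soluble signals, F2rl2, the thrombin receptor Par3, rose by 1.78 ± 0.29 (adjusted p = 0.00169). It was at 6.03, 9.81, 9.25 and 16.7 after rest against 3.20, 2.09, 2.25, 1.57 and 1.85 after 10 defeats. P2rx1, an ATP-gated channel, rose by 0.48 ± 0.09 (adjusted p = 0.00277). Trpc6 rose by 1.11 ± 0.17 (adjusted p = 0.00119), but it was tested only because its rested libraries passed the filter. P2ry12 differed by -0.23 ± 0.13 and did not pass. Slc24a3, below the filter, was at 0.955, 1.34, 0.921 and 1.82 after rest and at 0.297 to 0.504 after 10 defeats.

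Both alpha granule chemokines rose. Pf4 (chromosome 5, 90772435 to 90773383) was at 107, 178, 180.4 and 317 in rested marrow, at 63.5, 53.3, 60.1, 28.2 and 52.6 after 10 defeats and at 72.9, 58.0 and 94.6 in controls, a rise of 1.85 ± 0.44 over 10 defeats (adjusted p = 0.0102). Ppbp, its neighbour on chromosome 5 (90768518 to 90770063), was at 152, 304, 273 and 435 after rest and at 99.1, 50.6, 72.0, 25.6 and 49.4 after 10 defeats. For Ppbp the rested libraries lay above every other marrow library, and for Pf4 1-defeat D15, at 111, lay above rested D1.

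Of the 7 other granule and secreted proteins, 6 rose. Mmrn1 was at 3.47, 7.13, 5.51 and 8.14 after rest and at 1.71, 0.744, 0.770, 0.636 and 0.603 after 10 defeats, a rise of 1.88 ± 0.24 (adjusted p = 0.000705), the lowest adjusted p of the 32. Thbs1 rose by 1.92 ± 0.33 (adjusted p = 0.00198), with rested libraries at 25.2, 43.3, 35.5 and 42.5. Vwf, von Willebrand factor, rose by 1.58 ± 0.34 (adjusted p = 0.00674), and the protease inhibitor Serpine2 by 1.246 ± 0.20 (adjusted p = 0.00166). Clu rose by 1.23 ± 0.30 and Sparc by 1.34 ± 0.43 (adjusted p = 0.0105 and 0.0357), and F5 did not pass (0.21 ± 0.15). Sparc overlapped, as 10-defeat D9 was at 14.8 with the other 4 at 3.12 to 4.93, and its call was lost without 10-defeat D6, D7 or D10 or rested D2, D3 or D8 (adjusted p 0.0661 to 0.0993).

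Rab27b rose by 1.71 ± 0.25 (adjusted p = 0.000841) and Nbeal2 did not pass (0.10 ± 0.17). Of the cytoskeletal and signalling genes, Tubb1, at 24.9, 41.9, 35.5 and 46.8 after rest, lay above every other marrow library. Plek, pleckstrin, a protein kinase C substrate, rose by 0.46 ± 0.13 (adjusted p = 0.0183), and Nrgn by 1.22 ± 0.35 (adjusted p = 0.0221). The call of Plek was lost without rested D2 (adjusted p = 0.0684), and that of Nrgn without rested D2, D3 or D8 or 10-defeat D6 (0.0524 to 0.0714). Rasgrp2 (0.17 ± 0.14), Bin2 (-0.14 ± 0.18) and Tmem40 (-0.28 ± 0.16) did not pass. The 9 genes that did not pass were thus Gp1bb, Selp, Cd9, P2ry12, F5, Nbeal2, Rasgrp2, Bin2 and Tmem40.

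**Figure D2:**
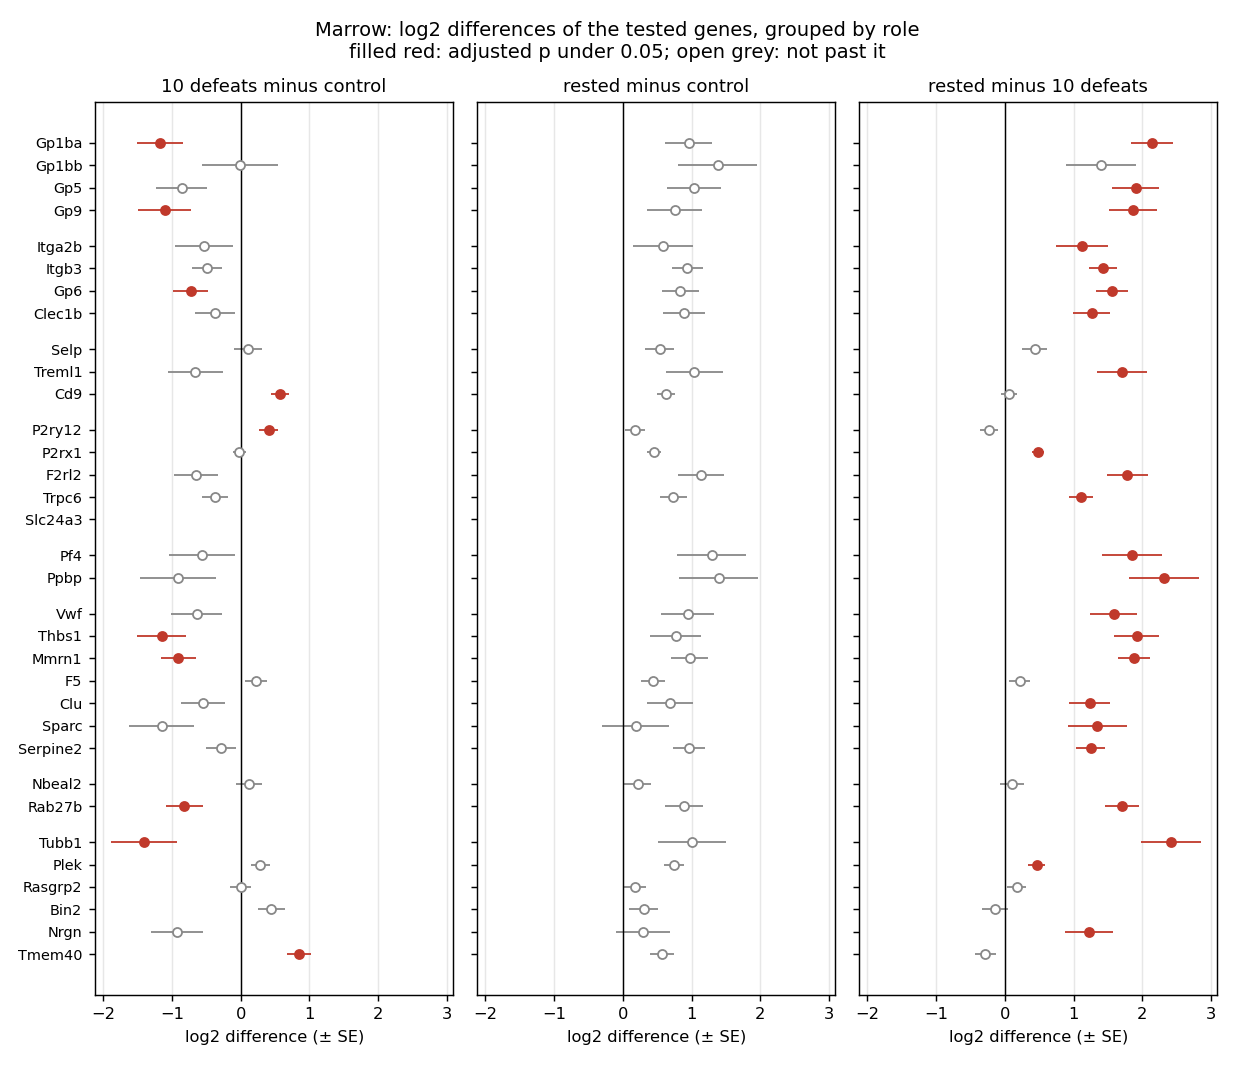
Log2 differences (x axis, points with SE) of the 32 tested genes (rows, grouped by role) in marrow; filled red points passed an adjusted p of 0.05. In the right panel 23 points are filled, all to the right of 0, and in the middle panel all 32 lie to the right of 0 with none filled.

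Against controls, rested marrow had no member called, as limma called 0 of 12442 genes in this comparison. All 32 differences were above 0, with a median of 0.76 against -0.02 over all genes. An unadjusted limma p under 0.05 was found in 21 members, and in 1768 of all 12442 genes in either direction. In 22 of the 32, every rested library lay above every control, as in 9.73% of all genes. Ppbp had the largest difference at 1.39 ± 0.58 (adjusted p = 0.295), followed by Gp1bb at 1.38 ± 0.58 (adjusted p = 0.3) and Pf4 at 1.29 ± 0.50 (adjusted p = 0.268). The lowest adjusted p were those of Plek (0.74 ± 0.14, 0.0723), Cd9 (0.63 ± 0.14, 0.0951) and P2rx1 (0.46 ± 0.10, 0.0951). Fitted on these groups alone 8 members were called higher, and with quantile normalization 4. The shares of all genes called in these fits are not given here, so these counts have no background beside them.

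Rested library D8 was the highest of the 19 marrow libraries in 25 of the 33 genes. It held Vwf at 43.8 against 13.3 to 20.6 in the other 3 rested libraries, Gp1bb at 37.1 against 8.89 to 19.0, and Pf4 at 317 against 107 to 180.4. Rested D1 was the lowest of its group in 22. Without D8, 19 of 31 genes rose over 10 defeats with a median of 1.10, and 30 of 31 differences from controls were above 0 with a median of 0.65.

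**Figure D3:**
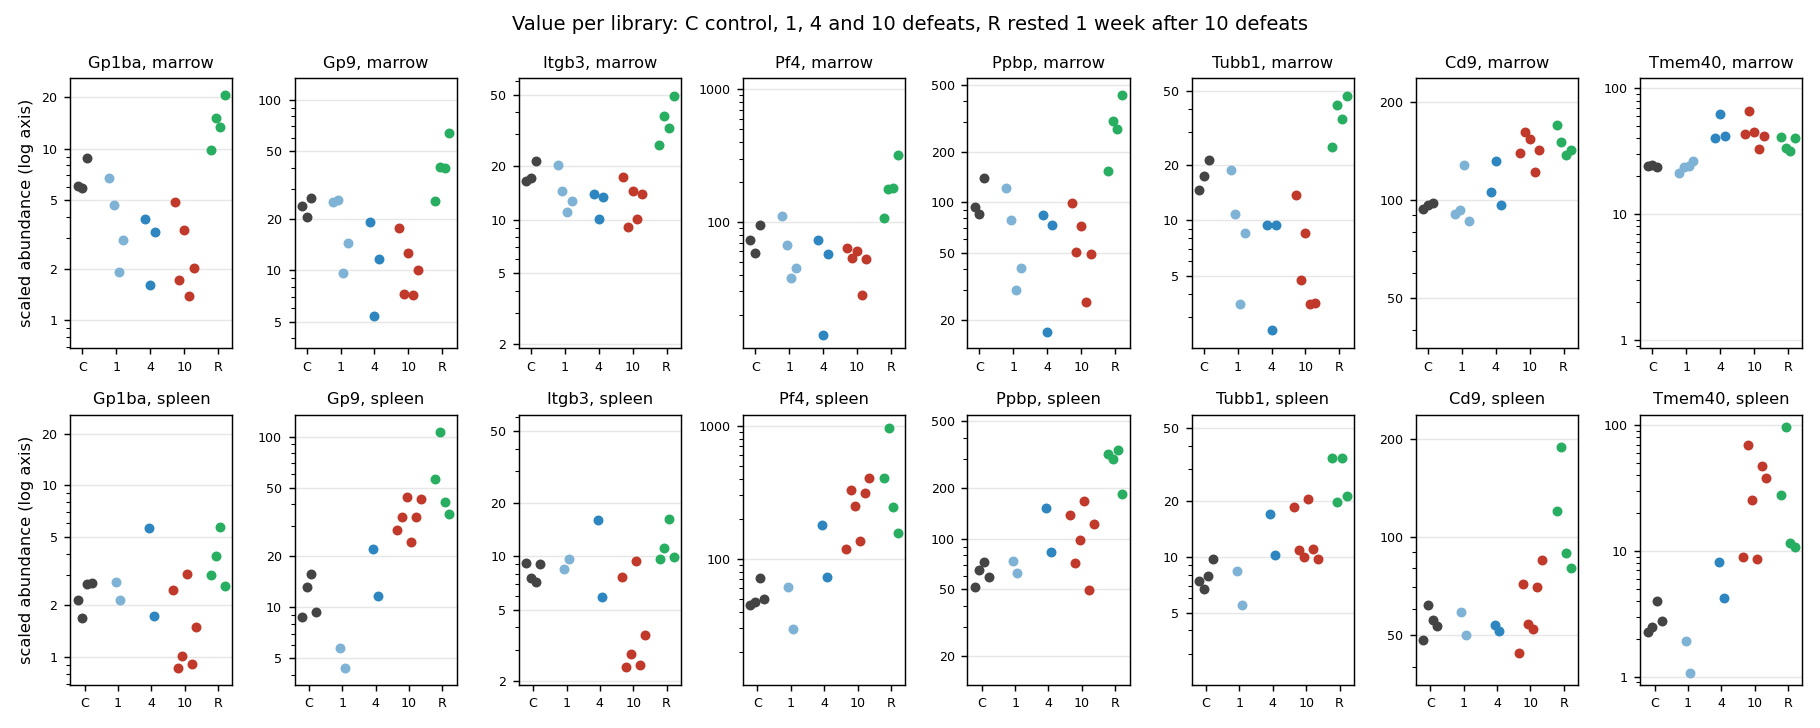
Scaled abundance (y axis, log scale) of 8 genes in each library (points), marrow above and spleen below, by group (x axis: C control, 1, 4 and 10 defeats, R rested). Tubb1 in rested marrow (24.9 to 46.8) lies above every other marrow library, while Cd9 and Tmem40 in marrow are at overlapping levels after 10 defeats and after rest.

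Genes that act with the 33 were counted from further lists. Of 12 transcription factors of megakaryocytes, 5 rose in rested against 10-defeat marrow (Gata1, Gata2, Zfpm1, Gfi1b and Meis1) and 1, Nfe2, fell. Gfi1b, a repressor of the erythroid and megakaryocyte lines, rose by 1.34 ± 0.29 (adjusted p = 0.00636), and Zfpm1, the Gata1 partner Fog1, rose by 1.31 ± 0.30 (adjusted p = 0.00799) after a fall of 1.64 ± 0.32 at 10 defeats (adjusted p = 0.00109). These factors also act in red cell precursors, whose markers are given below.

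Of 39 further megakaryocyte and platelet genes, 22 rose in rested against 10-defeat marrow and 2 fell, with a median of 0.73. F2rl3, the thrombin receptor Par4, rose by 1.38 ± 0.17 (adjusted p = 0.000705), Angpt1 by 1.15 ± 0.15, the adhesion receptor Cd226 by 1.68 ± 0.23 and Mylk, myosin light chain kinase, by 1.44 ± 0.20. Of 8 platelet lipid mediator genes, 4 rose: Alox12, the platelet lipoxygenase (2.09 ± 0.38), Tbxas1, thromboxane synthase (0.69 ± 0.14), Tbxa2r, the thromboxane receptor (0.93 ± 0.20), and Ptger3 (0.49 ± 0.15). Lists whose genes act in many blood cells were counted too: of 20 platelet activation genes 2 rose and 2 fell, with a median of -0.05, and of 23 genes of granule biogenesis and release 1 rose and 4 fell, with a median of -0.02. Slc35d3, needed for platelet dense granules, was the gene that rose, by 1.00 ± 0.17 (adjusted p = 0.00173).

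Markers of other marrow cells moved with these genes. Endothelial markers summed to 55.3 to 62.6 in controls, 27.8 to 35.4 after 10 defeats and 46.3 to 68.3 after rest; 9 of 13 fell after 10 defeats and 11 of 13 rose from there to rest, with Tie1 at 0.95 ± 0.12 (adjusted p = 0.000705). Stromal markers summed to 86.3 to 156, 27.5 to 70.8 and 104 to 222, and 7 of 10 fell and 7 of 10 rose, with Lepr at 1.35 ± 0.18 (adjusted p = 0.000726). Progenitor markers summed to 93.9 to 115, 60.4 to 70.8 and 95.1 to 98.5, and 3 of 7 rose, with Myb at 0.77 ± 0.09 (adjusted p = 0.000705). Erythroid markers summed to 348400 to 450800, 118400 to 280800 and 127500 to 391000, and 3 of 15 rose. B cell markers summed to 861 to 1227, 19.3 to 255 and 304 to 506, and 4 of 10 rose. Neutrophil markers summed to 60180 to 69590, 144400 to 271000 and 85080 to 134700, and 9 of 14 fell. T cell markers summed to 65.6 to 72.3, 17.2 to 42.4 and 33.9 to 45.7, with 7 of 9 lower after 10 defeats and 1 of 9 higher from there to rest. Macrophage markers summed to 214.5 to 337.5, 130.3 to 198.6 and 139.1 to 249.3, with 6 of 9 lower and then 1 of 9 higher. Basophil and mast cell markers summed to 328 to 349, 364 to 501 and 367 to 411, with 2 of 7 higher and 2 lower and then 1 higher and 1 lower. None of the listed markers was at 0 in all libraries of a group. Vwf, Selp, Thbs1, Mmrn1 and Sparc are also made by endothelial or stromal cells, whereas Pf4, Ppbp, Gp1ba, Gp9, Gp6 and Tubb1 are typical of the platelet lineage; the part of other cells in the result was not tested.

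**Figure D4:**
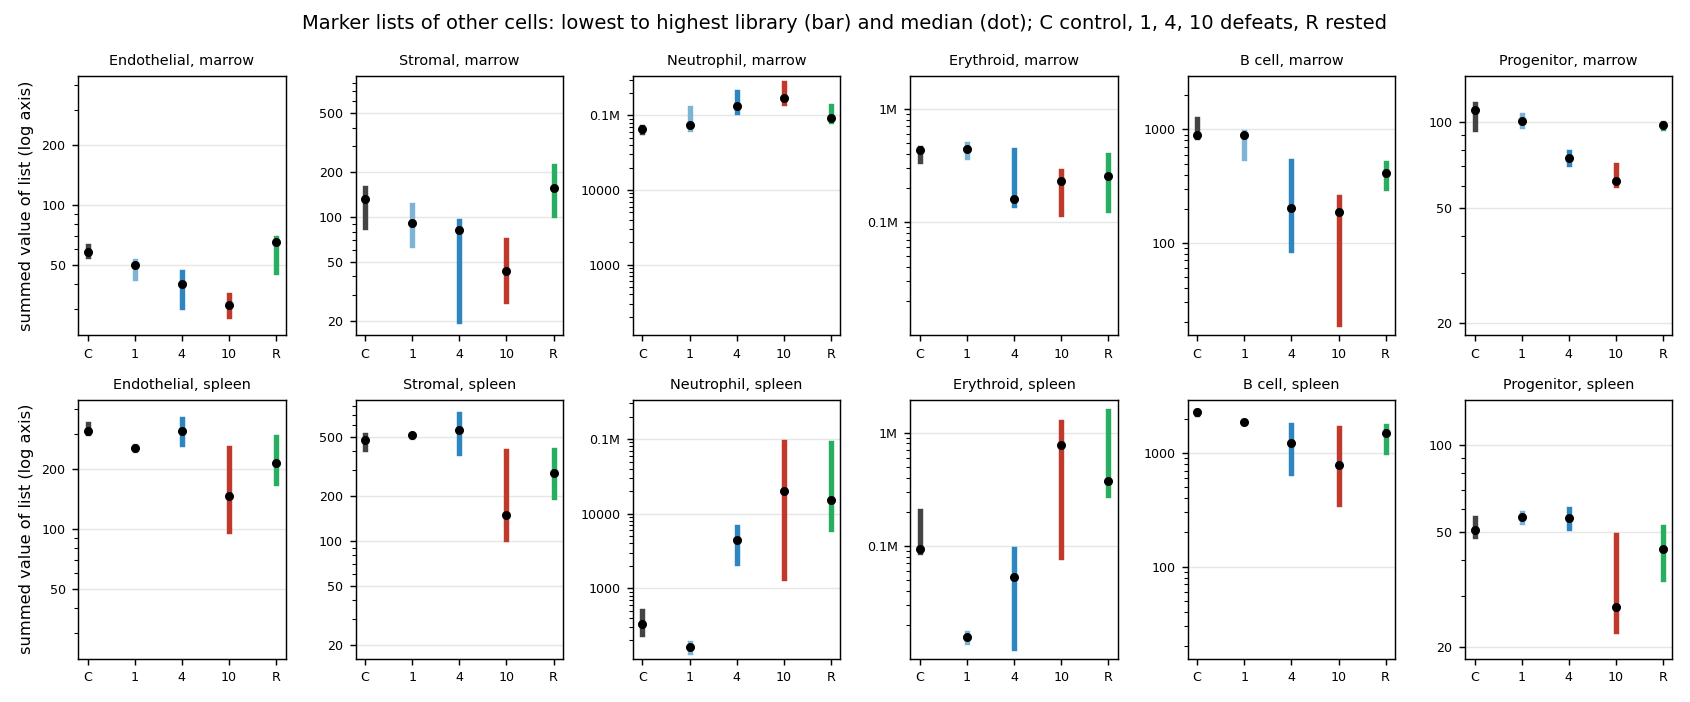
Summed value of marker lists of other cells (y axis, log scale) by group (x axis as in the plot of values per library), marrow above and spleen below; bars run from the lowest to the highest library and dots are medians. In marrow the endothelial bar after 10 defeats (27.8 to 35.4) lies below those of control (55.3 to 62.6) and rest (46.3 to 68.3).

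In spleen, no member was called after 1 defeat (0.624% of all genes were called higher and 0.0645% lower; 1 member had an unadjusted p under 0.05 in each direction) or after 4 defeats (0.043% and 0%; 3 and 1 members). Of all 13945 genes, 2104 and 1314 had an unadjusted limma p under 0.05 in either direction. The members' medians were -0.05 and 0.36, against 0.07 and -0.04 over all genes. Each of these groups had 2 libraries, and after 4 defeats they differed: D13 was above D14 in 32 of the 33 genes. Pf4 was at 180.3 in D13 and 73.2 in D14, where controls were at 45.0, 46.8, 71.0 and 49.4. Without D14, 2 members were called higher.

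After 10 defeats, 9 of 33 genes rose in spleen and 7 fell. Of all genes 16.8% were called higher and 41.9% lower. All 6 libraries lay above all controls in 9 members and below them in 4, against 10.4% and 25.8% of all genes. The median of the members was 0.15 against -0.36 over all genes, and with libraries rescaled to equal totals it was -0.48 against -0.89. The distance between the 2 medians was 0.50 and 0.41. The rescaling divides all genes of a library by the same factor, so it moves the 2 medians together and cannot test this distance. The 9 that rose were Gp1bb, Gp9, Gp6, Selp, Treml1, Pf4, Rab27b, Tubb1 and Tmem40, and the 7 that fell were Itgb3, Slc24a3, Clu, Sparc, Nbeal2, Plek and Bin2.

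Pf4 had the largest rise among the chemokines. It was at 45.0 to 71.0 in control spleens and at 118 to 405 after 10 defeats, with a median of 281, and rose by 2.15 ± 0.47 (adjusted p = 0.00177). The groups did not overlap, but the values followed the split of the libraries: D4 and D5 were at 137 and 118, and the 4 libraries with high totals at 328, 248, 313 and 405. Without the 5 libraries of high total the difference was 1.27 ± 0.43 (adjusted p = 0.0519). Tmem40 showed the same split, at 8.55 and 8.86 in D4 and D5 and at 69.5, 25.4, 47.1 and 38.1 in the other 4, against 2.28 to 3.99 in controls. Its rise of 2.78 ± 0.60 (adjusted p = 0.00179) was 1.34 ± 0.34 without the 5 libraries (adjusted p = 0.0185). Erythroid markers moved with it: 14 of 15 rose after 10 defeats, their sum reached 80130 to 1242000 against 88880 to 204500 in controls, and their part in the result was not tested.

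Among the receptors, Gp9 was at 8.76, 13.2, 15.6 and 9.33 in control spleens and at 24.1 to 44.0 after 10 defeats, with a median of 33.8. It rose by 1.49 ± 0.29 (adjusted p = 0.000873), and without the 5 libraries by 1.13 ± 0.28 (adjusted p = 0.0157). Rab27b rose by 1.09 ± 0.20 (adjusted p = 0.000756), Gp1bb by 1.02 ± 0.34 (adjusted p = 0.0186), Gp6 by 0.81 ± 0.21 (adjusted p = 0.00542) and Treml1 by 0.77 ± 0.23 (adjusted p = 0.0115). Tubb1 rose by 0.65 ± 0.25 (adjusted p = 0.0345), but with libraries rescaled to equal totals its difference was -0.01, and Selp rose by 0.61 ± 0.24 (adjusted p = 0.0369), a call lost without the 5 libraries. Under that rescaling Gp1bb, Gp6, Selp, Treml1 and Rab27b were not called either. Gp1bb lost its call without control C1 or C2 (adjusted p = 0.0502 and 0.0625), Tubb1 without control C1, C2 or C3 or 10-defeat D4 or D5 (0.0614 to 0.0887), and Selp without any 1 control or without D6 or D9 (0.0514 to 0.116).

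The genes that fell had another order. Clu was at 405 to 479 in controls and at 28.7 to 347 after 10 defeats, with a median of 87.1, a fall of 2.23 ± 0.57 (adjusted p = 0.00433). Nbeal2 fell by 1.41 ± 0.21 (adjusted p = 0.000238), and its 10-defeat libraries (1.98 to 5.02) all lay below the controls (7.91 to 13.6). Without the 5 libraries Clu fell by 0.68 ± 0.22 and Nbeal2 by 0.98 ± 0.21, both still called, and the other 5 were not. Itgb3 followed the split in the other direction from Pf4: D4 and D5 were at 9.46, above all controls, and 7.62, inside their range (9.17, 7.57, 7.14 and 9.03), and the 4 libraries of high total were at 2.39, 2.85, 2.45 and 3.61. Its fall of 0.83 ± 0.33 (adjusted p = 0.0374) became a difference of 0.05 ± 0.30 without the 5 libraries, and its call was lost without any 1 control or any 1 of those 4 (adjusted p 0.051 to 0.0854). Slc24a3 lost its call without control C4 (adjusted p = 0.0538). Stromal and endothelial markers moved with Clu and Sparc: 10 of 11 and 13 of 15 fell, and their sums were 103 to 400 against 412 to 516, and 97.25 to 255 against 303 to 334. Other cell markers moved after 10 defeats as well: 12 of 14 neutrophil markers rose (sums of 1365 to 91010 against 242 to 500.4) and 5 of 7 basophil and mast cell markers rose and 1 fell (17.4 to 47.3 against 11.07 to 14.2). All 10 B cell markers fell (355 to 1675 against 2209 to 2367), as did 9 of 10 T cell markers (74.5 to 378 against 532 to 675) and 4 of 10 macrophage markers (695.5 to 1280 against 1222 to 1363). The part of these cells in the result was not tested. The shorter of the 33 genes, split at a median transcript length of 2710 bp, had a median difference of 0.26 and the longer of -0.03 (Spearman rho -0.29 between length and difference, across 33 genes, which are not independent replicates). With the trend of values over transcript length removed from each library, Itgb3, Slc24a3, Sparc and Tubb1 lost their calls. The part of length in the result was not tested.

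In rested spleens, 17 of 33 genes were higher than in controls and none was lower, against 3.02% and 4.24% of all genes. Leaving out Trpc6, which passed the filter only through its rested libraries, it was 16 of 32. The median was 1.035 against -0.18 over all genes. With equal totals only Gp9, Pf4, Rab27b and Tmem40 were called. The distance between the medians was 1.24 under that rescaling and 1.22 without it. The rescaling divides all genes of a library by the same factor, so this distance could hardly move and says nothing about the lost calls. In 25 genes all rested libraries lay above all controls, as in 8.93% of all genes. In Clu and Nbeal2 they all lay below, as in 18.1% of all genes, though neither passed. Leaving out rested D2, the highest of the 18 spleens in 18 of the 33 genes, 12 were called.

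Ppbp was at 322, 299, 337 and 186 in rested spleens, at 52.0, 65.6, 72.6 and 59.2 in controls and at 49.5 to 167 after 10 defeats. It rose by 2.15 ± 0.33 over controls (adjusted p = 0.00247), and the rested libraries lay above every other spleen. Pf4, at 403, 961, 243 and 157, rose by 2.72 ± 0.51 (adjusted p = 0.00781), and by 2.23 ± 0.38 in the fit without the 5 libraries, which leaves out D2. Rab27b had the lowest adjusted p of the 33: it was at 8.196, 11.3, 7.28 and 4.48 after rest and at 1.01, 1.55, 1.28 and 1.39 in controls, a rise of 1.88 ± 0.22 (adjusted p = 0.000288).

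The receptor subunits all had differences above 0 in rested spleens against controls, but not all passed. Gp1bb rose by 2.26 ± 0.37 (adjusted p = 0.00384) and Gp9 by 2.16 ± 0.31 (adjusted p = 0.00167), while Gp5 (1.13 ± 0.35, adjusted p = 0.0564) and Gp1ba (0.51 ± 0.30, adjusted p = 0.251) did not pass. For Gp5, every rested spleen (4.71 to 11.98) lay above every control (1.73 to 3.75). Gp1ba was at 3.02, 3.90, 5.74 and 2.60 in rested spleens and at 2.14, 1.68, 2.66 and 2.72 in controls, so that rested D8 lay inside the control range. Treml1 rose by 1.79 ± 0.26 (adjusted p = 0.00163), Gp6 by 1.52 ± 0.23, Clec1b by 0.84 ± 0.21, Selp by 1.12 ± 0.26, Cd9 by 1.03 ± 0.25 and Itga2b by 1.44 ± 0.41 (adjusted p = 0.0467). Itga2b was at 77.7 in D2 and at 19.5, 21.8 and 13.1 in the other 3, and its call was lost without D2 (0.92, adjusted p = 0.132), D1 or D3 or without any 1 of the controls. Clec1b, Selp, Cd9 and Tmem40 lost their calls without D2, D1, control C1 or control C4, and all of these but Clec1b without control C2 (adjusted p 0.0532 to 0.0958). Further rises were P2rx1 (1.26 ± 0.25), F2rl2 (1.34 ± 0.27), Trpc6 (0.81 ± 0.15, tested only because its rested libraries passed the filter), Mmrn1 (1.29 ± 0.24), Tubb1 (1.63 ± 0.27) and Tmem40 (2.72 ± 0.66).

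In the companion lists, of 40 further megakaryocyte and platelet genes 8 rose and 1 fell, and of 12 transcription factors Gata1, Gfi1b, Nfe2 and Tal1 rose. Erythroid markers (8 of 15) and neutrophil markers (12 of 14) also rose in rested spleens, to sums of 279100 to 1564000 and 6238 to 88310, against 88880 to 204500 and 242 to 500.4 in controls. Endothelial markers had 3 of 15 lower and stromal markers 4 of 11. The part of these cells in the result was not tested.

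From 10 defeats to rest, 6 of 33 genes rose in spleen (Clec1b, Trpc6, Ppbp, Mmrn1, Serpine2 and Plek) and none fell, against 0.272% and 0.294% of all genes. Without Trpc6, for the reason given above, it was 5 of 32. Of the 33 differences, 32 were above 0, with a median of 0.87 against 0.15 over all genes, and in 13 all rested libraries lay above all 10-defeat libraries, as in 2.17% of all genes. Ppbp rose by 1.47 ± 0.30 (adjusted p = 0.041) and Plek by 1.32 ± 0.23 (adjusted p = 0.0291); for Plek, rested spleens were at 66.8 to 74.3 and 10-defeat spleens at 19.4 to 53.7. The count of calls was not stable: it was 0 without D6, D7 or D9 of the 10-defeat group or without rested D1, D3 or D8, 1 without D5 or D10, 2 without rested D2 and 22 without 10-defeat D4, the library highest of its group in 17 of the 33 genes. It was also 0 without the 5 libraries of high total.

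**Figure D5:**
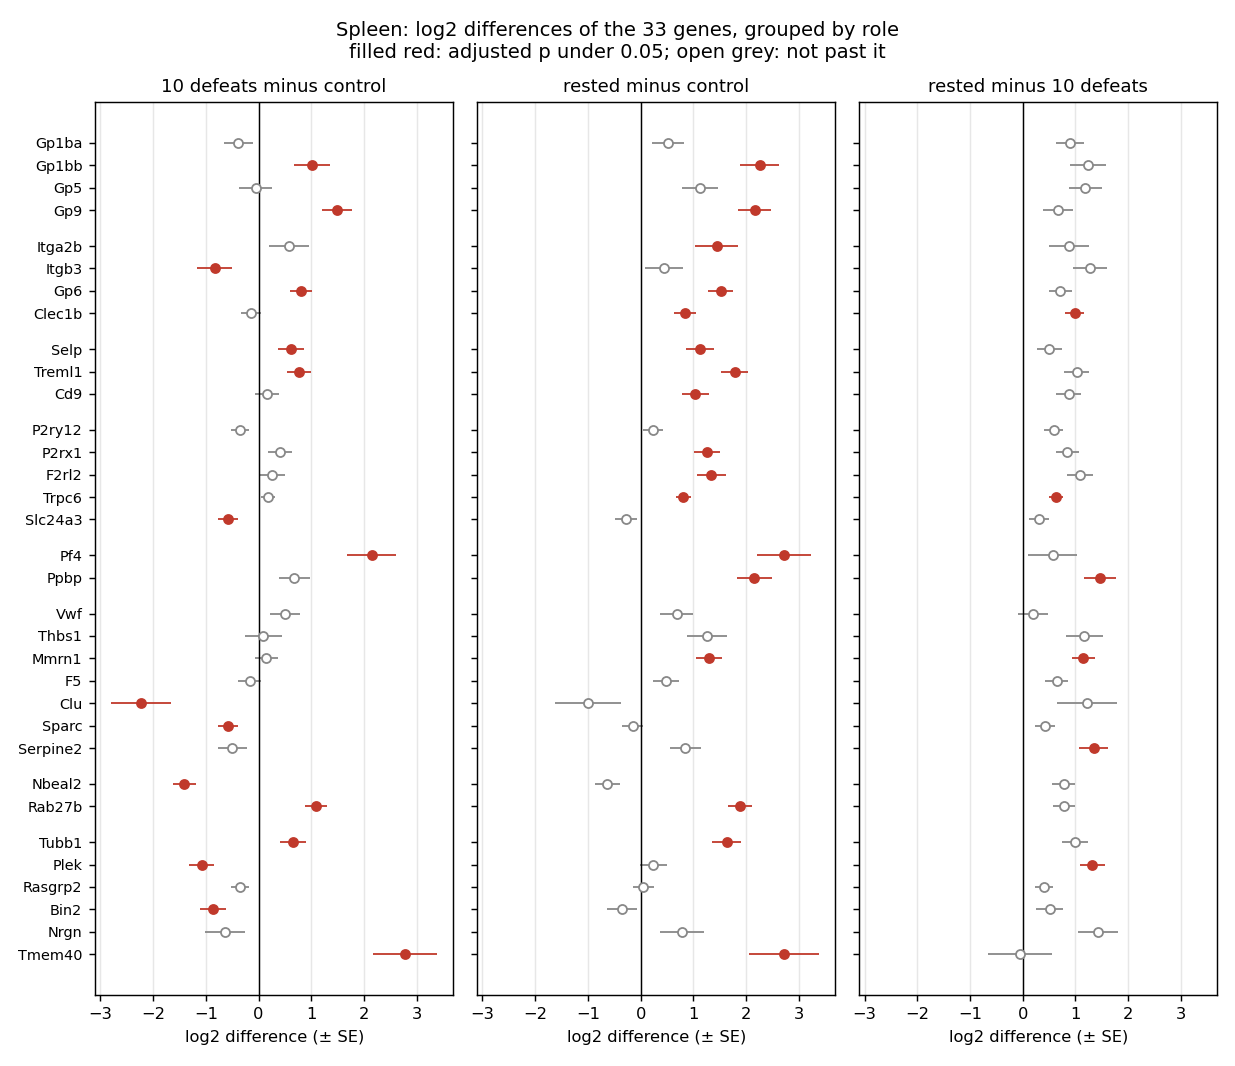
Log2 differences (x axis, points with SE) of the 33 genes (rows, grouped by role) in spleen; filled red points passed an adjusted p of 0.05. After 10 defeats 9 filled points lie to the right of 0 and 7 to the left, and after rest 17 lie to the right of 0 against controls.

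The difference of the effects between the tissues was tested in a model of all 37 libraries and 14513 genes. For 10 defeats against control, 10 of the 33 genes had a higher effect in spleen than in marrow and 4 a lower effect, against 16.1% and 27% of all genes. Pf4 differed by 2.71 ± 0.68 (adjusted p = 0.00226), Gp9 by 2.59 ± 0.49 (adjusted p = 0.000127), Tubb1 by 2.05 ± 0.53 (adjusted p = 0.00272), Tmem40 by 1.93 ± 0.68 (adjusted p = 0.0237) and Rab27b by 1.91 ± 0.34 (adjusted p = 7.13e-05). Gp9, Gp6, Rab27b and Tubb1 passed the test in both tissues in opposite directions, lower in marrow and higher in spleen. Without marrow control C4, none of these falls in marrow was called. With libraries rescaled to equal totals, the rises of Gp6, Rab27b and Tubb1 in spleen were not called, and that of Gp9 was. The 4 lower effects were those of Nbeal2 (-1.52 ± 0.29), Plek (-1.36 ± 0.28), Bin2 (-1.31 ± 0.34) and P2ry12 (-0.76 ± 0.22). Without the 5 libraries of high total Pf4, Tmem40 and Trpc6 were not called, and with equal totals 5 genes were called higher. Leaving out Trpc6, for the reason given above, the higher effects were 9 of 32. Ppbp (1.60 ± 0.62, adjusted p = 0.037) lost its call without marrow control C1 or C4, marrow D6, D9 or D10, or spleen control C1 or C4 or spleen D10 (adjusted p 0.0505 to 0.102), and Mmrn1 (1.05 ± 0.35, adjusted p = 0.0154) without marrow control C4 (0.0603). Trpc6 (0.56 ± 0.22, adjusted p = 0.0409) lost its call without any 1 of marrow C1, C4, D6, D7, D9 and D10 or of spleen C1, C2, C4, D7, D9 and D10 (0.0528 to 0.103). With equal totals Ppbp, Mmrn1, Trpc6, Treml1 and Tubb1 were not called. The calls of Pf4, Gp9, Tubb1, Tmem40, Rab27b and the 4 lower effects were kept when any 1 library was left out.

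For rested against control, none of the 33 effects differed between the tissues by limma (2.06% of all genes were called higher in spleen and 1.58% lower). An unadjusted limma p under 0.05 was found in 4 members higher and 3 lower. It was found in 3030 of all 14513 genes in either direction, a share near that of the members. The lowest adjusted p was 0.0878, for P2rx1. Pf4 differed by 1.43 ± 0.73 and Ppbp by 0.76 ± 0.66, and a difference of that size is not shown to be absent. Without spleen rested D8 3 members were called higher, and without spleen rested D3 1 was. For rested against 10 defeats, Cd9 (0.81 ± 0.26), P2ry12 (0.81 ± 0.21) and Plek (0.86 ± 0.27) had a higher effect in spleen and Vwf a lower one (-1.39 ± 0.46), against 4.82% and 5.36% of all genes. Vwf was at 5.39 to 13.03 in 10-defeat spleens and at 8.07, 20.4, 9.96 and 7.25 after rest, and in marrow at 3.59 to 8.89 and at 13.3 to 43.8. These counts moved with single libraries: the lower effects numbered 8 without spleen rested D2, 6 without marrow rested D1, 5 without marrow D5 and 2 without spleen D4 or D5. They numbered 0 without marrow D6, D10 or rested D2, D3 or D8, and without spleen D7, D9, D10 or rested D1 or D8. The higher effects numbered 1 without marrow D7, D10 or rested D3 or D8, and without spleen D7 or rested D1. The calls of Cd9, Plek and Vwf were each lost when single libraries of either tissue were left out (adjusted p up to 0.0903, 0.0811 and 0.15), and that of P2ry12 was kept.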

How the data were processed

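Polyadenylated RNA of 19 marrow and 18 spleen libraries was measured with stranded libraries, per the labels. The deposited values are a signal: abundances per transcript length that the authors scaled per library, made with kallisto 0.46.1 and sleuth on GRCm38 per the submitters' processing notes; the exact exported quantity and its scaling are not given in the sources used here. Column totals ran from 657918 to 2652290. Within libraries 58.4% to 74.3% of low values fell on whole reads (tolerance 0.1 of a read), which gave depths of 3610000 to 34960000 reads as estimates but no count table, so no count test was run.

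Here log2(value + 1) was fitted with limma 3.58.1 (R 4.3.3; trended, robust variance), 1 model per tissue over its 5 groups and 1 over all 10 for tissue contrasts, with Benjamini-Hochberg adjustment over all genes that reached a value of 1 in at least 3 libraries (marrow) or 2 (spleen and both). The script was tested on simulated data. Identifiers matched GENCODE M21 for 99.3% of genes. The members, gene lists and tests were chosen with earlier results of these data known, and the motif spellings after their sequences were seen. All 33 members are named; from other lists, up to 4 genes with the smallest p in marrow rested against 10 defeats and up to 2 in 10 defeats against control could be named, plus Alox12. The result of 1 further gene list is not reported here. Marker lists of macrophages, T cells, and basophils and mast cells were also counted. Alternatives were quantile, equal-total and median-ratio scaling, a pseudocount of 0.1, no filter, only the groups compared, leaving out each library, a replicate block and, chosen after seeing the data, removal of the length trend and of 5 spleen libraries with totals over 1500000. No libraries were near-identical (highest correlation 0.9955).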

Additional observations from a re-analysis of the deposited data

Results flagged for a closer look

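Each member was looked at in each group of 4 to 10 libraries, which gave 198 sets of values. In 7 of them (3.54%), 1 library stood far from the others by Dixon's criterion, which chance passes in about 1 of 20 sets. The members share the same libraries, so these sets are not independent. In marrow these were Rasgrp2 in 1-defeat D17 (54.57, the lowest), Pf4 in 10-defeat D9 (28.17, the lowest), Mmrn1 in 10-defeat D5 (1.706, the highest) and Sparc in 10-defeat D9 (14.78, the highest). In spleen they were Itga2b in control C1 (7.166, the lowest), P2ry12 in control C2 (14.04, the highest) and Thbs1 in 10-defeat D7 (3.064, the lowest).

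The effect of 10 defeats differed between spleen and marrow, by limma's test of the difference, in 14 members. It was higher in spleen by 2.709 for Pf4, 2.592 for Gp9, 2.054 for Tubb1, 1.926 for Tmem40, 1.915 for Rab27b, 1.598 for Ppbp, 1.534 for Gp6, 1.425 for Treml1, 1.051 for Mmrn1 and 0.5554 for Trpc6 on the log2 scale. Those of Ppbp, Mmrn1 and Trpc6 lost their calls when single libraries were left out, as given above. Trpc6 was also tested only because its rested libraries passed the filter. The difference was -1.52 for Nbeal2, -1.362 for Plek, -1.311 for Bin2 and -0.7586 for P2ry12. From 10 defeats to rest, the effect was higher in spleen by 0.8578 for Plek, 0.814 for P2ry12 and 0.8063 for Cd9, and the difference was -1.392 for Vwf.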

How the results depend on the processing

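The rise of members from 10 defeats to rest in marrow held under each alternative in its direction, with 18 to 24 called higher when single libraries were left out and, with quantile normalization, 1 called lower. The cause of the changes below was not tested, and the share of all genes called under each alternative is not given. With quantile normalization, 2 members were higher and 1 lower after 4 defeats in marrow, 4 lower after 10 defeats, 4 higher in rested against control marrow, 14 higher after 10 defeats in spleen, 2 higher from there to rest, 5 higher in control spleen against control marrow, and 3 with a higher rested effect in spleen. With equal totals, 1 was lower after 4 defeats in marrow, 3 were higher after 10 defeats and 4 after rest in spleen, 0 from 10 defeats to rest, 9 were lower in control spleen than in control marrow, and 5 and 0 had a higher effect in spleen for 10 defeats and for 10 defeats to rest; Tubb1 after 10 defeats in spleen turned to -0.01298. With median-ratio scaling, 2 and 5 were higher after 4 and 10 defeats in marrow, 3 lower after 10 defeats in spleen, 1 higher from there to rest and 1 with a higher rested effect in spleen. A pseudocount of 0.1 left 0 higher from 10 defeats to rest in spleen, and no filter left 1, with 1 lower after 4 defeats in marrow and, for that step between tissues, 1 higher and 0 lower. Removing the length trend gave 5 higher after 10 defeats in marrow and 4 lower in spleen. Fits on only the groups compared gave 12 lower after 10 defeats and 8 higher after rest against control in marrow, 2 lower after 1 defeat in spleen, 0 higher from 10 defeats to rest there, 6 higher and 23 lower between control tissues, and 1 higher and 0 lower for 10 defeats to rest between tissues. Without the 5 spleen libraries of high total, 1 was lower after 1 defeat, 3 after 10 defeats, 0 higher from there to rest, 6 higher between control tissues, 1 with a higher rested effect in spleen and 2 with a lower effect for 10 defeats to rest; Itgb3 after 10 defeats turned to 0.04793.

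Leaving out single libraries gave 0 to 7 lower after 4 defeats and 0 to 8 lower (2 to 3 higher) after 10 defeats in marrow. In spleen it gave 0 to 2 higher after 4 defeats, 6 to 9 higher and 5 to 9 lower after 10 defeats, 12 to 18 higher after rest and 0 to 22 from 10 defeats to rest. Between control tissues it gave 3 to 4 higher and 13 to 14 lower; effects differing between tissues numbered 7 to 12 higher and 4 to 5 lower for 10 defeats, 0 to 3 higher for rest, and 1 to 4 higher and 0 to 8 lower for 10 defeats to rest. Where an arm was left with 1 library, it was assumed to vary like the other groups.

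Libraries of both tissues share 15 tags. Of the 15 pairs, 5 deviated together with a correlation over 0.1 (-0.204 to 0.35). Among the 2 to 6 spleen libraries of the same condition, 8 correlated best with their own tag. These counts do not settle whether a tag is an animal. The labels do not say so, and the tags were not taken as pairs in the main fits. With the tag as a replicate block (consensus correlation 0.0113), 5 instead of 4 members had a lower effect of 10 defeats in spleen, and all 36 member calls tested were kept. Groups of 2 to 6 libraries and low levels (Trpc6, a median of 41.1 estimated reads) limit what could be called.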
